A study of Mus musculus with 12 samples.

Results

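Distal peaks that were found in sorted microglia and in neither of the other cell sorts of the study made up 45836 of the 91770 microglia peaks (49.9%). A microglia peak was taken as distal and microglia-only when it was annotated as intronic or intergenic, lay over 1000 bp from the nearest transcription start site (TSS), and overlapped no peak of neuronal or oligodendrocyte-lineage nuclei by 1 bp or more. The choice used position and peak calls, with no cut on signal. Peak calls themselves rest on reads, and the microglia peaks are named as merged over the 2 genotypes compared below. A peak can thus have entered through the genotype in which it is high. Of the 45836 peaks, 26834 (58.5%) were intronic and 19002 (41.5%) intergenic.

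Open chromatin away from promoters marks candidate enhancers, the DNA elements at which transcription factors bind to set the expression of genes that can lie far along the chromosome. Enhancers differ between cell types far more than promoters do. In microglia, the macrophages of the brain, they are bound by PU.1 (encoded by Spi1) together with factors such as IRF8, MEF2 and RUNX1, and by SMAD factors downstream of TGF-beta.

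The assay was ATAC-seq, in which a transposase places sequencing adapters in open DNA, on forebrain cells of C57BL/6 mice aged 4 months. The compared groups were microglia of wild-type (WT) mice and of mice labelled SgshKO, with 2 libraries each. Sgsh encodes N-sulfoglucosamine sulfohydrolase, a lysosomal enzyme that breaks down heparan sulfate, and its loss is the cause of mucopolysaccharidosis type IIIA. The labels name neither the kind of Sgsh allele, nor the sex of the mice, nor a batch, nor whether each library came from 1 animal or a pool. Microglia were sorted as live CD11b+, CD45low, CX3CR1+ cells, whereas the NeuN+ and Olig2+ nuclei, which served only to decide which peaks were found outside microglia, were sorted after light fixation. Replicates are called replicate 1 and 2 as in the labels. The p-values set a change against a spread drawn partly from the peak's own libraries and partly from all microglia peaks. The spread between these libraries may be technical.

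The 4 microglia libraries held 10771659 to 11804222 tags. A distal microglia-only peak had a median of 31 and 27 reads in the WT libraries and 34 and 22 in the SgshKO libraries. Within 1000 bp of a TSS, 11 of 12 microglia marker genes had a peak, with a summed signal of 3072 and 2636 normalized tags in WT and 3265 and 2540 in SgshKO. The sums were 172 to 335 for neuron markers (3 of 10 genes with a peak), 386 to 470.1 for oligodendrocyte markers (6 of 10), 108 to 148 for astrocyte markers (5 of 10) and 67.8 to 98.7 for blood monocyte and neutrophil markers (2 of 12). Endothelial markers (5 of 10) gave 572 and 480 in WT and 692 and 660.1 in SgshKO, and border macrophage markers (5 of 10) 202 and 150.0 against 267 and 170. Lymphocyte markers (2 of 10) gave 109 and 100.8 in WT and 84.8 and 61.3 in SgshKO. In both SgshKO libraries the endothelial sums were above both WT values and the lymphocyte sums below both, and their part in the results was not tested. Levels in sorted cells cannot tell fewer open cells from less open chromatin per cell.

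A genome sequence was not used here, so sequence could be read only where a peak overlapped a RefSeq start window (250 bases before to 50 after a gene's start, assembly GRCm38.p6, the assembly known as mm10). This was the case for 331 of the 45836 peaks (0.722%), 289 at the start of a long non-coding RNA and 42 at that of a protein-coding gene, since RefSeq holds starts that the files' annotation did not take as the nearest TSS. The 6 stretches printed here lie just before RefSeq starts and do not stand for distal microglia-only peaks at large. The Card9 stretch is at a start of Card9 itself, and the others are at starts of long non-coding RNAs. The intron in the 4930405A10Rik label is not one of that gene, which is only the nearest. This peak lies 258704 bp before the TSS of 4930405A10Rik. They were picked after their values were seen, to cover high and low peaks and each direction of change. They are written 5′ to 3′ on the strand named, and capitals mark letters of a searched motif, namely ACANNNTGT (glucocorticoid receptor) and TGANTCA (AP-1) in the Stab1 peak, GAGGAAGT (PU.1) in the 4930405A10Rik peak, TGTGGTT (RUNX) in the Cd9 peak, and ACANNNTGT followed by CACGTG (the E-box bound by MITF, TFEB and TFE3) in the Rab7 peak. The Card9 and Cd180 stretches held none of the searched motifs and stand in lower case.
Stab1 intron, at the Gm52148 start, mm10 chr14:31160583-31160734, plus strand: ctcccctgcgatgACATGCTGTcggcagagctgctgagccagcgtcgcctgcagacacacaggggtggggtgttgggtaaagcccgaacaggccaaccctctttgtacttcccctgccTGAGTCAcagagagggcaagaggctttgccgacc
Card9, mm10 chr2:26360910-26361078, minus strand: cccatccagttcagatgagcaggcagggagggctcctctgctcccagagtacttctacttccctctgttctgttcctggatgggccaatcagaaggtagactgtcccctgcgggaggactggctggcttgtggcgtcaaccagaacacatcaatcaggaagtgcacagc
4930405A10Rik intron, at the Gm30926 start, mm10 chr14:22801365-22801614, minus strand: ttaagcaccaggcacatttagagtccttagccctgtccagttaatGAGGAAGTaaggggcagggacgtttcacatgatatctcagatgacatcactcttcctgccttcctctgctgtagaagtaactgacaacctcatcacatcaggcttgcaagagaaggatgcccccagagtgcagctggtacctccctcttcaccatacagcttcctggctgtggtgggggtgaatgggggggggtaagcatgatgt
Cd9 intron, at the Gm28809 start, mm10 chr6:125481824-125482033, plus strand: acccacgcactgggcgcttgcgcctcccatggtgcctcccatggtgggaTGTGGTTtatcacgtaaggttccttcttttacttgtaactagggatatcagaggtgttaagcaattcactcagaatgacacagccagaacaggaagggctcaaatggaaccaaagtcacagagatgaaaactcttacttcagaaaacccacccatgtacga
Rab7, at the Gm38855 start, mm10 chr6:88053845-88054065, minus strand: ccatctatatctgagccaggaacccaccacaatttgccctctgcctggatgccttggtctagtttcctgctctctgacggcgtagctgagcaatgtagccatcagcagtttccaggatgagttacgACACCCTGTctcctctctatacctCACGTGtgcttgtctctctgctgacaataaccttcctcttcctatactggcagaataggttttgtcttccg
Cd180, at the Gm41046 start, mm10 chr13:102666002-102666152, minus strand: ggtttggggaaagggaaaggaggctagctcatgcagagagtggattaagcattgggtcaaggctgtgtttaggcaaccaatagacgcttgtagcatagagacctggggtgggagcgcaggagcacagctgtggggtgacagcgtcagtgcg

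The 4930405A10Rik peak with the PU.1 letters had 81.2 and 34.7 normalized tags (tags scaled to 10000000 per library) in the WT libraries and 452 and 376 in the SgshKO libraries, so that both SgshKO values lay well above both WT values (log2 change 2.93 ± 0.32 (SE), limma adjusted p = 8.81e-08). The Rab7 peak with the E-box, near the gene of a late-endosome GTPase, rose from 121 and 96.6 to 245 and 201 (log2 change 1.03 ± 0.29, adjusted p = 0.0198). The Cd9 peak with the RUNX letters, in a gene for a tetraspanin that marks disease-associated microglia, rose from 102 and 61.0 to 161 and 149 (0.97 ± 0.31, adjusted p = 0.0469). The Cd180 peak, 27505 bp from the start of a Toll-like receptor homologue gene, fell from 43.2 and 46.6 to 11.3 and 23.2 (-1.41 ± 0.42, adjusted p = 0.0300). At the Stab1 peak 342 and 285 tags in WT stood beside 669 and 418 in SgshKO, and the difference was not called (0.76 ± 0.26, adjusted p = 0.0687). The Card9 peak overlapped between genotypes, at 449 and 333 against 499 and 323 (0.05 ± 0.26, adjusted p = 0.931). The 4930405A10Rik call held in all 16 other fits tried. Without WT replicate 1 the calls at Rab7, Cd9 and Cd180 were lost (limma adjusted p = 0.264, 0.217 and 0.379), as they were without WT replicate 2 (0.693, 0.840 and 0.614), and that at Cd180 also without SgshKO replicate 1 (0.0555). None of the 3 changed sign.

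Over the 323 distinct start windows at distal microglia-only peaks, searched on both strands in their full 300 bases, GAGGAAGT was found in 11.5%, beside 3.20% of all 32851 windows and 3.33% of the windows at long non-coding RNA starts. TGTGGTT was found in 11.5% beside 5.27% and 6.29%. The IRF letters GAAACTGAA stood in 1.86% beside 0.627% and 0.734%, and the SMAD letters GTCTAGAC in 1.24% beside 0.213% and 0.190%. The MEF2 letters TAAAAATAG were in 0.929% beside 0.493% and 0.664%. A further 3 motifs were each in 8.67% of the windows at these peaks, with AP-1 at 7.81% of all windows and 9.31% of those at long non-coding RNA starts, the glucocorticoid receptor letters at 6.85% and 8.45%, and CACGTG at 7.15% and 5.89%. The AP-1 share thus lay between its shares in the other sets. The longer E-box TCACGTGA, which contains CACGTG, was in 0.619% beside 0.974% and 0.501%, also between them. No window at these peaks held the CEBP letters TTGCGCAA (0.183% and 0.112%) or the CTCF letters AGGGGGCGC (1.25% and 0.414%). The GC content was 50.7% at these windows, 53.8% over all windows and 49.3% over those of long non-coding RNAs. These counts are of start windows at fewer than 1% of the peaks, and counted letters can lie outside the peak. The other sets were not limited to starts open in microglia, and the differences were not tested.

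Distal microglia-only peaks lay a median of 18871 bp from the nearest TSS (quartiles 7470 and 44703 bp), compared with 14404 bp for the 16838 distal microglia peaks that overlapped a peak of 1 or both nuclei sorts. Their median width of 232 bp was close to the 234 bp of all microglia peaks. The nearest NeuN+ or Olig2+ peak was a median of 4152 bp away, and 12065 (26.3%) had none within 10000 bp. At the edges of the rule, the 317 peaks up to 100 bp beyond the distance limit had a median signal of 21.6 normalized tags and the 227 otherwise alike peaks up to 100 bp inside it 20.3. The 1564 peaks with a nuclei peak 1 to 100 bp away had a median of 26.3.

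The signal of these peaks was low for most and high for a few. The median over the 4 libraries was 24.8 normalized tags, beside 30.2 for distal peaks shared with nuclei and 49.0 for the 23806 microglia peaks within 1000 bp of a TSS. The upper 10% began at 108 and the highest reached 1430. They held 41.1% and 40.4% of the tags in peaks in the WT libraries, 39.8% in SgshKO replicate 1 and 35.0% in SgshKO replicate 2. The SgshKO libraries thus differed more from each other than SgshKO replicate 1 differed from WT, and the opposite course was seen near start sites, which held 35.3%, 35.7%, 37.8% and 43.9% in the same order.

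In SgshKO microglia 1778 distal microglia-only peaks were higher and 1191 lower than in WT at an adjusted p under 0.05 (limma on log2(normalized tags + 1), fitted over all microglia peaks). The 2969 called peaks were 6.48% of these peaks, 3.88% higher and 2.60% lower, against a background of 7.37% of all 91770 microglia peaks (5.05% higher and 2.33% lower). The total is thus near the background. The median change of the called peaks was 1.70 on the log2 scale for the higher and -1.76 for the lower ones. In 2964 of the 2969 both SgshKO libraries lay on 1 side of both WT libraries. With 2 libraries per genotype a call nearly requires this, so the count adds no support to the calls. Over all 45836 peaks the median change was -0.08, as over all microglia peaks. Distal peaks shared with nuclei stood at 664 higher and 443 lower (6.57%), while peaks within 1000 bp of a TSS stood at 2046 higher and 286 lower (9.80%). The differences between these classes were not tested.

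Both SgshKO libraries exceeded both WT libraries at 9342 of the peaks (20.4%, against 22.97% of all microglia peaks) and lay below both at 12385 (27.0% against 28.1%). Intergenic peaks had 822 higher and 458 lower (6.74% called), and intronic ones 956 and 733 (6.29%). Both shares are near the 7.37% of all microglia peaks. The share called by distance was 5.61% at 1000 to 5000 bp from a TSS and 8.36% beyond 100000 bp. Among the 25% with the lowest signal 546 were higher and 647 lower (10.4% called), whereas among the highest 10% 234 were higher and 25 lower (5.65%).

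The balance of directions depended on scaling and on single libraries. The higher ones made up 59.9% of the calls. With libraries scaled to their tags in peaks, 1975 were higher and 4600 lower (30.0% higher), a scaling that moved the median of all microglia peaks to -0.28. After cyclic loess the split was 3334 and 1353 (71.1%), and DESeq2 called 1315 and 234 (84.9%). Without WT replicate 1 it was 424 and 23, without WT replicate 2 176 and 9, without SgshKO replicate 1 1999 and 7002, and without SgshKO replicate 2 5997 and 2388. The median difference between replicates of 1 genotype was 0.31 on the log2 scale in WT and 0.55 in SgshKO.

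**Figure D1:**
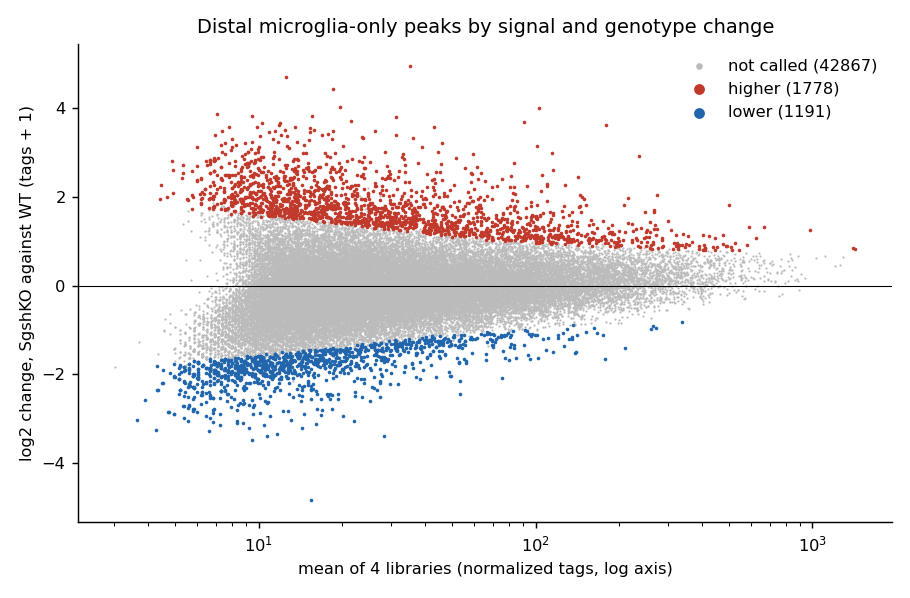
Each point is 1 of the 45836 distal microglia-only peaks, by its mean over the 4 microglia libraries (normalized tags, log axis) and its log2 change between SgshKO and WT. The 1778 peaks called higher (red) reach to the highest signals, and the 1191 called lower (blue) lie mostly at low signal, with 25 of them among the highest 10%.

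The largest increases among called peaks of at least median signal lay nearest Igf1, Apoc2, Gpat3, Runx1, Mbd2, Pdpn, Pon2 and Lgals3bp. The peak with the largest increase was intergenic, 161597 bp before the TSS of Igf1, which encodes insulin-like growth factor 1 (mm10 chr10:87696514-87696822). It had 0.86 and 1.69 normalized tags in WT and 78.8 and 59.4 in SgshKO. Both WT libraries were almost without reads there (3 reads in all, against 155 in SgshKO), a ratio of 54.1 with a 95% counting interval from 18.2 to 265 (log2 change 4.96 ± 0.49, adjusted p = 1.31e-08). With so few WT reads, this peak can have entered the peak list through the SgshKO libraries alone, which the interval does not take into account. All 3 peaks with Igf1 as the nearest gene had positive changes, and 2 of them were called.

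An intronic peak of Runx1, the gene of a lineage transcription factor of blood and microglia, rose from 12.1 and 11.9 to 203 and 137 (mm10 chr16:92612548-92612785, 84663 bp from the TSS, log2 change 3.69 ± 0.36, adjusted p = 1.31e-08). In intron 3 of Gpat3, whose enzyme makes lysophosphatidic acid for triglyceride synthesis, a peak rose from 2.59 and 4.24 to 64.1 and 54.8 (3.796 ± 0.46, adjusted p = 7.35e-07). At Pdpn, the gene of the surface glycoprotein podoplanin, an intron 1 peak rose from 7.78 and 2.54 to 56.3 and 58.5 (3.39 ± 0.47, adjusted p = 8.03e-06). The naming rule required both SgshKO values to lie on 1 side of both WT values, and all 3 had WT values far below. A peak 2720 bp before Lgals3bp, which encodes a secreted galectin-3 binding glycoprotein, rose from 8.64 and 7.62 to 85.7 and 81.7 (3.22 ± 0.40, adjusted p = 1.39e-06). The calls at Igf1, Runx1, Gpat3, Pdpn and Lgals3bp held in all 16 other fits tried. All fits reuse the same libraries and peak list. A held call thus does not show that a peak entered the list through both genotypes.

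For 3 of the 8 largest increases the WT libraries themselves were apart. The intron 1 peak of Apoc2, whose product activates lipoprotein lipase, had 63.1 normalized tags in WT replicate 1 and 0.85 in WT replicate 2 (73 reads and 1 read), beside 197 and 151 in SgshKO. A peak nearest Mbd2 had 32.8 and 0 in WT and 84.8 and 54.8 in SgshKO, and one nearest Pon2, a paraoxonase gene, 31.1 and 0 against 66.7 and 46.4. A count of 0 in WT replicate 2 allows up to 2.54 normalized tags. Without WT replicate 2 the calls were lost, with log2 changes of 1.44, 1.03 and 0.82 (limma adjusted p = 0.232, 0.708 and 0.803), and DESeq2 did not call them (adjusted p = 0.588, 0.770 and 0.799). In 10 of the 45836 peaks WT replicate 2 had at most 1 read where WT replicate 1 had 20 or more, and 5 of these were called higher. Likewise, SgshKO replicate 2 had at most 1 read where SgshKO replicate 1 had 20 or more in 10 peaks, of which 2 were called lower. With SgshKO replicate 1 as the low library this was so at 1 peak, and with WT replicate 1 at no peak.

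**Figure D2:**
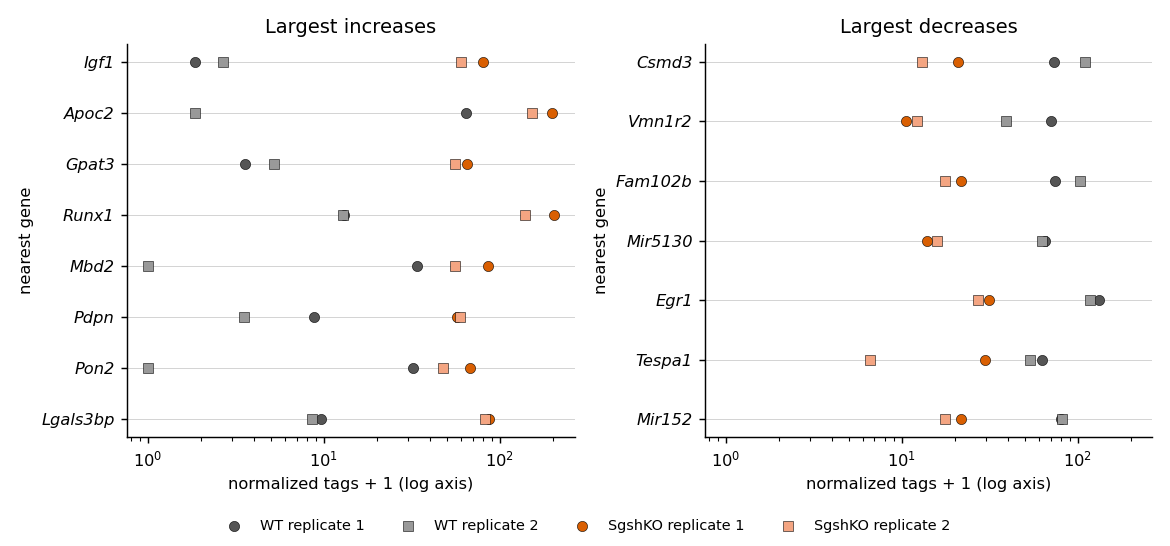
Normalized tags plus 1 (log axis) in each of the 4 microglia libraries for the 8 largest increases (left) and 7 of the 8 largest decreases (right), named by nearest gene. By the naming rule, SgshKO points lie right of both WT points in the left panel and left of both in the right panel. The WT points of Apoc2, Mbd2 and Pon2 are far apart.

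The largest decreases of this kind were smaller than the largest increases, from -2.44 to -2.04 on the log2 scale. In intron 3 of Csmd3, which encodes a large complement-control-domain protein, a peak fell from 72.6 and 108 normalized tags to 19.9 and 12.1 (mm10 chr15:48583965-48584172, log2 change -2.44 ± 0.39, adjusted p = 5.47e-05). In intron 1 of Fam102b a peak fell from 73.5 and 103 to 20.8 and 16.7 (-2.16 ± 0.37, adjusted p = 0.000173). A peak 6760 bp from Egr1, an immediate-early transcription factor gene, fell from 130.5 and 116 to 30.3 and 26.0 (-2.09 ± 0.34, adjusted p = 7.00e-05). In each of these 3 the groups did not overlap, as the rule for naming them required.

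Further decreases lay nearest Vmn1r2 (69.1 and 38.1 to 9.52 and 11.1), the microRNA gene Mir5130 (64.0 and 61.8 to 12.99 and 14.9), Tespa1 (61.4 and 52.5 to 28.6 and 5.57) and the microRNA gene Mir152 (79.5 and 80.5 to 20.8 and 16.7). Of these 7 decreases only that nearest Egr1 kept its call without each of the 4 libraries in turn. The call was lost without WT replicate 1 near Vmn1r2 (limma adjusted p = 0.252), Mir5130 (0.0719), Tespa1 (0.129) and Mir152 (0.0541). Without WT replicate 2 it was lost at Csmd3 (0.0788), Fam102b (0.151), Mir5130 (0.102), Tespa1 (0.0981) and Mir152 (0.0999). All of these kept a log2 change of -1.79 or lower. Such fits leave 1 WT library, which is taken to vary like SgshKO.

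The 5 peaks with the highest signal lay in introns nearest Cotl1, Ski, Chmp6, Fance and Mapk8. The Cotl1 peak, in the gene of an actin-binding protein, had 1053 and 976 normalized tags in WT and 2259 and 1431 in SgshKO (log2 change 0.83 ± 0.23, adjusted p = 0.0233). The Ski peak, in the gene of a SMAD co-repressor, had 1045 and 896 in WT and 2380 and 1287 in SgshKO (0.85 ± 0.24, adjusted p = 0.0252). Both SgshKO values were above both WT values in 4 of the 5 (not at Mapk8), with SgshKO replicate 1 the highest, but neither called change held under every setting. After cyclic loess they were 0.0041 and 0.042 (adjusted p = 0.991 and 0.907), after quantile normalization -0.0088 and 0.12 (0.976 and 0.690), and each call was also lost without WT replicate 1, WT replicate 2 or SgshKO replicate 1. The Chmp6, Fance and Mapk8 peaks were not called (0.65, 0.47 and 0.45, adjusted p = 0.0941, 0.218 and 0.281).

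For 26 genes of microglia identity or activation, the peak with the highest signal was looked up, and 24 had one (Apoe and Gpnmb had none). Only that of Igf1 was called. Those at lineage and homeostatic genes were strong peaks whose changes did not pass the test as scaled here. The intron 2 peak of Csf1r, the colony-stimulating factor receptor that microglia need to survive, had 982 and 865 in WT and 970 and 766 in SgshKO (log2 change -0.10 ± 0.23, adjusted p = 0.856). The peak 10141 bp before Spi1 had 372 and 302 against 407 and 330 (0.13 ± 0.26, adjusted p = 0.827), and that of Sall1, a factor that keeps microglial identity, 364 and 325 against 360 and 260 (-0.17 ± 0.26, adjusted p = 0.759). The groups overlapped at all 3 genes. After quantile normalization the Csf1r and Sall1 peaks were called lower (-0.79 and -0.65, adjusted p = 0.00165 and 0.0169), as they were after cyclic loess, and the Spi1 peak had a change of -0.38 that was not called.

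The strongest peak of Cx3cr1, the fractalkine receptor gene, had 398 and 291 in WT against 303 and 230 in SgshKO (-0.37 ± 0.27). At Tmem119 it had 451 and 474 against 780.03 and 508 (0.44 ± 0.25), and at P2ry12, a purinergic receptor gene, 196 and 167 against 261 and 216 (0.39 ± 0.27). Their adjusted p-values from limma were 0.445, 0.303 and 0.424. Genes that mark disease-associated microglia had strongest peaks of unlike height and direction. The peak of Axl, a receptor tyrosine kinase gene, had 304 and 213 in WT against 302 and 164 in SgshKO (-0.19 ± 0.29, adjusted p = 0.749), and that of Itgax, the CD11c gene, 124 and 86.4 against 138 and 110 (0.25 ± 0.30, adjusted p = 0.677). Both were as strong as the upper 10% of distal microglia-only peaks, and their groups overlapped. The others were low. Near Clec7a there were 31.1 and 16.1 in WT against 48.5 and 39.9 in SgshKO (log2 change 0.94 ± 0.40, adjusted p = 0.155), near Spp1 12.96 and 22.03 against 48.5 and 23.2 (0.95 ± 0.44, adjusted p = 0.192), and near Lpl 19.9 and 11.9 against 33.8 and 24.1 (0.85 ± 0.44, adjusted p = 0.249). At Cst7 and Fabp5 the means over the 4 libraries were 20.7 and 17.9, with changes of 0.13 and 0.28 that were not called (adjusted p = 0.904 and 0.778). Mitf, whose factor drives lysosomal genes, had a peak of 233 and 209 in WT and 336 and 289 in SgshKO (0.49 ± 0.26, adjusted p = 0.271). At these counts changes of this size were not called, and a missed call does not show that the libraries were alike.

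Grouped by nearest gene, distal microglia-only peaks of homeostatic genes leaned lower and those of disease-associated genes higher. At 24 of 26 homeostatic genes there were 335 such peaks, of which 1 was higher and 24 lower. These are 0.299% and 7.16%, against a background of 5.05% and 2.33% of all microglia peaks, while the total of 7.46% is at the background of 7.37%. The median log2 change was -0.42 against -0.08 over all microglia peaks. At 35 of 38 disease-associated genes there were 212, of which 17 were higher (8.02%) and 3 lower (1.42%), 9.43% in all (median 0.37). The median of the first list stayed below that of all peaks, by 0.33 to 0.38, under every scaling and count tool tried, and by 0.27 to 0.40 without each library. That of the second stayed above it, by 0.39 to 0.45 and by 0.37 to 0.49. The counts moved far more: leaving out 1 library gave 0 to 84 lower in the homeostatic list and 3 to 56 higher in the disease-associated list, the fewest without WT replicate 1 or 2 in the first and without WT replicate 2 in the second, the most lower without SgshKO replicate 1 and the most higher without SgshKO replicate 2. The lean was not particular to distal microglia-only peaks. The 127 other microglia peaks of the homeostatic genes had 2 higher and 13 lower (median -0.50). The 123 other peaks of the disease-associated genes had 10 higher and 0 lower (median 0.32). Both lists describe genes with earlier results of these data known and are no independent evidence of a direction.

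Among homeostatic genes, 3 of 18 peaks of Cx3cr1 were lower and all 18 had negative changes, with 45.8 and 41.5 against 12.1 and 10.2 at the strongest called one (-1.88 ± 0.42, adjusted p = 0.00376). Golm1 had 5 of 19 lower, Tgfbr1, a TGF-beta receptor gene, 4 of 35, and Sall1 3 of 47. The strongest peaks of Cx3cr1 and Sall1 were not called, while weaker peaks of the same genes fell. After quantile normalization the strongest peak of Cx3cr1 was called lower too (-0.83, adjusted p = 0.00611). The call at the weaker one was lost without WT replicate 1 or WT replicate 2 (limma adjusted p = 0.224 and 0.239).

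In the disease-associated list 2 of 5 peaks nearest Timp2, a metalloproteinase inhibitor gene, were higher, one of them with 20.7 and 15.3 in WT and 118 and 100.3 in SgshKO (2.54 ± 0.36, adjusted p = 1.18e-05). A peak nearest Hif1a, the hypoxia-inducible factor gene, rose from 3.46 and 11.9 to 61.5 and 55.7 (2.97 ± 0.46, adjusted p = 4.73e-05), and one near the chemokine gene Ccl3 from 15.6 and 16.1 to 47.6 and 43.6 (1.47 ± 0.40, adjusted p = 0.0187). In all 3 both SgshKO libraries exceeded both WT libraries. Hif1a had 2 of 11 peaks higher, Ccl3 2 of 8 and Cd9 2 of 29. The 3 lower calls of this list were weak peaks. Of the 6 peaks nearest Itgax, 1 fell from 19.0 and 13.6 to 6.06 and 0 (-2.68 ± 0.62, adjusted p = 0.0051). It lies 14168 bp before the Itgax TSS, in an intron of another gene, and the median of the 6 peaks was -0.74. Near Ctsd, the cathepsin D gene, 1 of 20 fell from 19.9 and 16.1 to 6.06 and 1.86 (-2.07 ± 0.53, adjusted p = 0.0111) and 1 was higher. Near Cd74, the invariant chain gene, 1 of 6 fell from 18.2 and 11.9 to 2.60 and 5.57 (-1.69 ± 0.52, adjusted p = 0.0398). Without WT replicate 1 the calls at Ccl3, Itgax, Ctsd and Cd74 were lost (limma adjusted p = 0.333, 0.402, 0.483 and 0.743), as they were without WT replicate 2 (0.444, 0.299, 0.459 and 0.581), and those named at Timp2 and Hif1a held in all 16 other fits.

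The 25 genes of cholesterol and lipid handling had 121 peaks at 21 genes, of which 18 were higher and 0 lower (14.9% called, median 0.26). The 90 other microglia peaks of the listed genes had 15 higher and 0 lower. Abca1, which exports cholesterol to lipoprotein particles, held 8 of the 18 among its 24 peaks, the strongest called one with 103 and 122 normalized tags in WT and 208 and 208 in SgshKO (0.89 ± 0.28, adjusted p = 0.0471). Myo5a, an unconventional myosin gene, held 4 among 5, with 9.51 and 7.62 against 61.5 and 40.9 at the strongest of them (2.43 ± 0.43, adjusted p = 0.000294), and Srebf1, a regulator of lipid synthesis, had both of its 2 peaks higher. Myosin Va is a motor of vesicle transport and not a lipid enzyme. The called share is above the background of 7.37%, but most of the calls lay at Abca1 and Myo5a. The count also depended on the library left out. It was 7 higher and 0 lower without WT replicate 1, 1 and 0 without WT replicate 2, 20 and 8 without SgshKO replicate 1, and 38 and 3 without SgshKO replicate 2. The median was -0.039 without SgshKO replicate 1, and scaling to tags in peaks gave 18 higher and 6 lower with a median of 0.056. The call at the Abca1 peak was lost without WT replicate 1 or 2 (limma adjusted p = 0.682 and 0.606) and after quantile normalization or cyclic loess (0.0725 and 0.0716), while that at the Myo5a peak held in all 16 other fits.

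The 50 lysosome and MiT/TFE genes had 231 peaks at 41 genes, 18 higher (7.79%) and 2 lower (0.866%), 8.66% in all, near the background of 7.37% (median 0.11). Fnip2, a partner of folliculin in amino acid sensing, had 5 of 16 higher, the strongest called one with 65.7 and 40.7 in WT and 154 and 131 in SgshKO (1.44 ± 0.32, adjusted p = 0.00354). A peak 1226 bp from Atp6v0c, the proton pump's membrane ring subunit gene, rose from 112 and 125 to 291 and 244 (1.17 ± 0.28, adjusted p = 0.00616). Scaled to tags in peaks the median of this list was -0.10, and it lay above the median of all peaks by 0.16 to 0.20 in each scaling. Without WT replicate 2 only 1 peak was higher, and without SgshKO replicate 1 the lower calls (26) outnumbered the higher ones (21). The Atp6v0c call was lost without WT replicate 1 (limma adjusted p = 0.323) or WT replicate 2 (0.309), and the Fnip2 call without WT replicate 2 (0.583).

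Lineage transcription factor genes carried 605 peaks, the most of any list, with 11 higher (1.82%) and 32 lower (5.29%). The 7.11% in all are about the background of 7.37%, and the median was -0.21. Klf2 held 10 of the 32 lower ones, and Fos and Runx1 4 each, while Irf8 had 2 of 42 higher and none lower. TGF-beta signalling genes had 7 higher and 6 lower of 251 (5.18%), with 5 of the higher ones at Ski and 4 of the lower ones at Tgfbr1. Complement and Fc receptor genes had 0 higher and 4 lower of 65 (6.15%), of which 3 lay near C1qb, where the strongest called one fell from 69.1 and 61.8 to 29.4 and 25.1 (-1.24 ± 0.36, adjusted p = 0.0288), a call lost without WT replicate 1 or WT replicate 2 (limma adjusted p = 0.543 and 0.568). Chemokine, cytokine and Toll-like receptor genes had 6 higher and 2 lower of 212 (3.77%), including 3 of 15 near Tlr2, and interferon response genes 2 and 1 of 36 (8.33%). Antigen presentation genes had 1 higher and 0 lower of 63 (1.59%). Apart from the 8.33% of the interferon list, the called shares in this paragraph were below the background of 7.37%.

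Genes that mark other cells carried 4 to 59 distal microglia-only peaks per list. There were 4 nearest 10 neuron markers, 12 nearest oligodendrocyte markers and 11 nearest lymphocyte markers, of which 0 were called in limma. The rule drops peaks that overlap one of NeuN+ or Olig2+ nuclei, which by itself lowers the counts at neuron and oligodendrocyte markers. Another 20 and 43 microglia peaks nearest these neuron and oligodendrocyte markers did not meet the rule. Astrocyte markers had 19 (1 lower), endothelial markers 59 (3 higher), blood monocyte and neutrophil markers 23 (1 higher) and border macrophage markers 29 (2 higher, both near F13a1, and 1 lower). The 12 microglia markers, of which 9 are also in the homeostatic list, carried 170, with 1 higher and 14 lower (median -0.45).

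**Figure D3:**
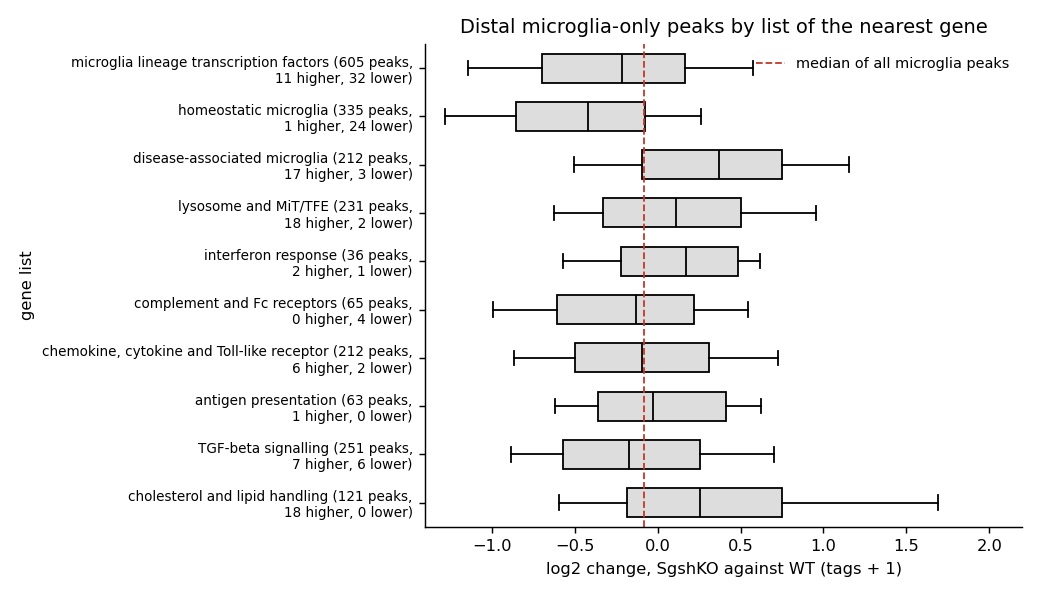
Boxes show the quartiles and median of the log2 change of distal microglia-only peaks whose nearest gene is in each list, with whiskers at the 10th and 90th percentiles of the peaks, and the dashed line is the median of all microglia peaks (-0.08). The homeostatic box (median -0.42) lies to the left of the line and the disease-associated box (median 0.37) mostly to the right.

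The peaks were crowded at some genes. They had 10895 nearest genes, of which 1062 had 10 or more and together held 41.2% of the peaks. Runx1 had the most, 81 over 487 kb, with 1 higher and 4 lower. Next were Sipa1l2 with 76 (3 higher, 0 lower), Pag1 with 71 (0 and 7), Frmd4a with 68 (0 and 9), Zfhx3 with 68 (0 and 3), Elmo1 with 65 (0 and 10), Rreb1 with 62 (0 and 0), Pmepa1 with 58 (1 and 0), Ski with 54 (5 and 0) and Zswim6 with 54 (0 and 0). Summed over its 65 peaks, Elmo1, which helps to activate Rac during engulfment of cells, had 3192 and 2718 normalized tags in WT and 2108 and 1606 in SgshKO. Frmd4a had 3537 and 2945 against 2520.2 and 1988, so that both genes had lower sums in each SgshKO library. Ski had 4945 and 4523 against 9560 and 5612, both above WT but with SgshKO replicate 1 far above replicate 2. At Runx1 the sums overlapped (4038 and 3525 against 4557 and 3334).

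Joined where neighbours were at most 10000 bp apart, the peaks formed 19633 runs, of which 10995 were single peaks, and 1999 runs of 5 or more held 38.9% of the peaks. The longest had 71 peaks over Ski and Morn1, with sums of 5436 and 5020.2 in WT and 10669 and 6292 in SgshKO, and 7 peaks higher. The next were 62 at Zfhx3 (5375 and 4849 against 4875 and 3700, 3 lower), 61 at Ifitm10 and Ctsd, the cathepsin D gene (4792 and 4449 against 5791 and 3952, 1 higher and 7 lower), and 56 at Pmepa1 and Zbp1 (3217 and 3164 against 4328 and 2917, 1 higher and 1 lower). The run of 54 at Mertk, the gene of a receptor for apoptotic cells, had 2386 and 2292 in WT and 1583 and 1436 in SgshKO, with 0 higher and 6 lower. Only the Ski and Mertk runs had both SgshKO sums on 1 side of both WT sums among these 5.

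The calls were spread over many genes. At least 1 peak was higher at 1344 genes and lower at 814, with both at 86, and 1604 of these 2072 genes had 1 called peak. The 162 genes with 3 or more held 25.3% of the calls, and the ones listed here were picked after their values were seen. Of the genes with 3 or more called peaks, 71 had only higher ones, 68 only lower ones and 23 both. Rftn1, which encodes the lipid raft protein raftlin, had 17 of 23 peaks higher and none lower, and its summed signal was 313 and 264 in WT and 1029 and 810 in SgshKO. Lncpint, a long non-coding RNA gene, had 14 of 21 higher (571 and 457 against 1609 and 1094). The chemokine receptor gene Cxcr4 had 8 of 9 higher (168 and 147 against 615 and 498), the long non-coding RNA genes 4933427D06Rik 10 of 12 and 4930405A10Rik 7 of 7, and Baiap2, Cmip and Cotl1 8 of 16, 8 of 33 and 7 of 31. Maff, which encodes a small MAF factor, had 6 of 12. Each of these sums was higher in both SgshKO libraries than in either WT library.

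Pik3r1, which encodes the regulatory subunits of phosphoinositide 3-kinase, had 20 of 45 peaks lower and none higher. Its sum was 3418 and 3096 in WT and 2239 and 1822 in SgshKO. Most of them, 19, lay in 1 run of 31 peaks over 47.1 kb, with sums of 2288 and 2092 against 1154 and 999. Fam102b had 13 of 26 lower (1524 and 1460.5 against 743 and 620.2), Pde3b, a phosphodiesterase gene, 10 of 25 (663 and 547 against 308 and 264) and Nav3 8 of 17. Klf2, an endothelial and macrophage transcription factor gene, had 10 of 20 lower, with sums of 1618 and 1538 against 1299 and 593, so that SgshKO replicate 2 was far below replicate 1. Rhob, a small GTPase gene, had 9 of 30 lower and 1 higher. The number of calls at these genes moved with the library left out: 6 to 19 higher at Rftn1, 2 to 17 at Lncpint, 1 to 8 at Cxcr4, 0 to 29 lower at Pik3r1 and 0 to 21 at Fam102b. Their median changes kept their sign in every such fit, from 1.70 to 2.49 at Rftn1 and from -1.15 to -0.90 at Pik3r1.

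**Figure D4:**
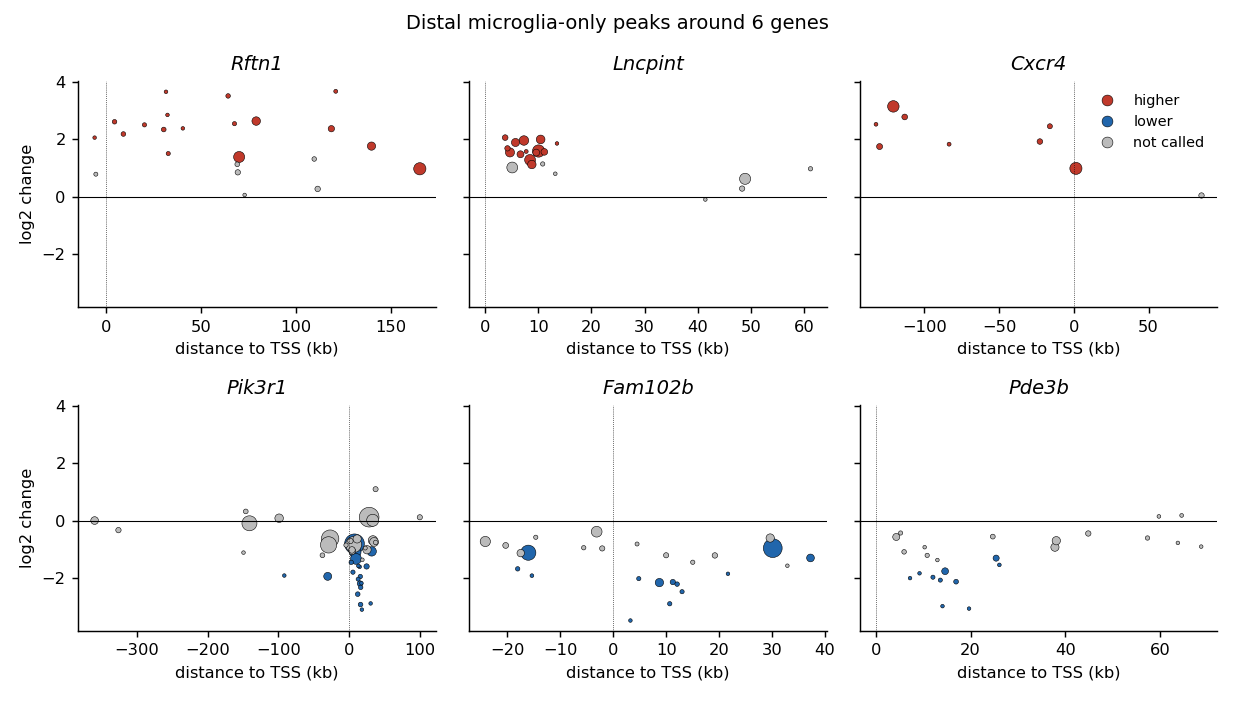
Log2 change of each distal microglia-only peak by its distance to the TSS (kb, positive downstream) at 6 genes picked after their values were seen, with point area rising with the mean signal. At Rftn1, Lncpint and Cxcr4 (top) the red points are peaks called higher, 17, 14 and 8 in number, and at Pik3r1, Fam102b and Pde3b (bottom) the blue points are the 20, 13 and 10 called lower.

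Neighbouring peaks changed alike more often when they were close. Over 9927 neighbouring pairs at most 1000 bp apart the Pearson correlation of their log2 changes was 0.44. It was 0.35 for 10358 pairs at 1000 to 5000 bp and 0.11 for pairs over 100000 bp apart. Where both of a close pair were called, the direction was the same in 157 of 157, and beyond 100000 bp in 27 of 33. The changes of all pairs come from the same 4 libraries, so that any difference between libraries that covers a stretch of chromosome is shared.

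The peak near the start of the nearest gene was set beside its distal microglia-only peaks. For 2345 genes with 5 or more of these and a peak within 1000 bp of the TSS, the Pearson correlation between the median distal change and the start-site change was 0.28, over genes in the same 4 libraries. Of 1328 peaks called higher whose gene had a start-site peak, that peak was called higher for 287 and lower for 3. Of 967 called lower, it was called higher for 52 and lower for 30. Over all such start-site peaks 13.1% were higher and 0.871% lower. For most called distal peaks the start-site peak of the nearest gene was thus not called, and the nearest gene need not be the one an element acts on.

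**Figure D5:**
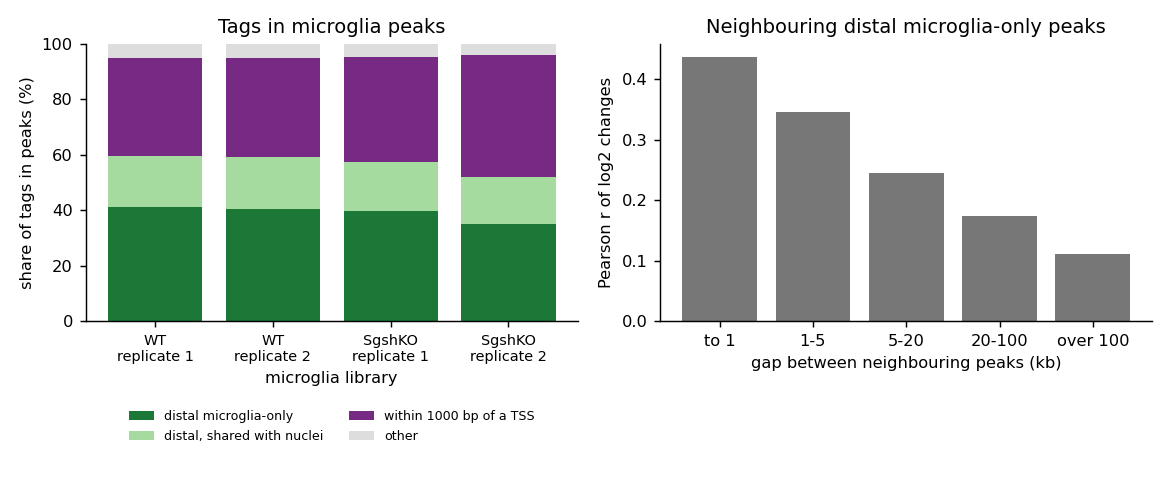
Left, bars give the share of tags in microglia peaks that lies in each class of peak for each library, with distal microglia-only peaks at 41.1%, 40.4%, 39.8% and 35.0%. Right, bars give the Pearson correlation of the log2 changes of neighbouring distal microglia-only peaks by the gap between them, from 0.44 at up to 1 kb to 0.11 over 100 kb.

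Some of the called peaks lay at places that need care. Within 1 Mb of Sgsh on chromosome 11 there were 147 distal microglia-only peaks, of which 18 were higher and 2 lower (13.6%), and within 5 Mb 524, of which 47 were higher and 3 lower (9.54%), compared with 105 and 55 of 2944 (5.43%) on the rest of the chromosome. The peaks named above at Lgals3bp, Timp2, Baiap2 and Chmp6 are in this stretch, and an effect of linked sequence around the altered gene was not tested. Leaving out the 524 peaks gave 1731 higher and 1188 lower. Nearest Vmn1r2 23 of 27 peaks were lower and none higher, in a run of 35.8 kb at the very start of the assembled chromosome 4, and a run of 22 nearest Pisd-ps2 at the start of chromosome 17 had 7 lower, with sums of 530 and 424 in WT and 144 and 206 in SgshKO. Such chromosome ends are rich in repeats, and how reads with several matches were treated was not stated. The only distal microglia-only peak on the Y chromosome, in an intron at Erdr1, had 44.9 and 16.9 normalized tags in WT and 0 in both SgshKO libraries, where a count of 0 allows up to 2.60 and 2.79. It was called lower (adjusted p = 4.24e-07) and was picked after its value was seen, and the call was lost without WT replicate 1 (limma adjusted p = 0.133). Without reads in SgshKO, this peak can have entered the peak list through the WT libraries alone. The other 5 microglia peaks on the Y chromosome, which were not distal microglia-only, lay nearest Erdr1 or G530011O06Rik and did not share 1 direction. A second peak in the Erdr1 intron had 16.4 and 16.9 in WT and 25.97 and 13 in SgshKO. Nearest G530011O06Rik, 2 peaks were called lower (43.2 and 33.0 to 0 and 3.71, and 37.2 and 38.1 to 0 and 6.50), while 2 were above WT in both SgshKO libraries without a call (18.2 and 11.0 against 28.6 and 31.6, and 6.91 and 12.7 against 21.6 and 17.6). The sex of the mice is not in the labels.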

How the data were processed

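ATAC-seq libraries of sorted microglia (2 WT and 2 SgshKO) were compared, and the peak lists of NeuN+ and Olig2+ nuclei served only to choose the members. Bowtie2, HOMER and the build mm10 are named in the submitters' processing notes. How reads were shifted, duplicates treated and peaks called is not given in the sources used here. Deposited signal values are tags in a peak after each library was scaled to a total of 10000000, per the file headers. Dividing this out gave whole reads (100% of values within 0.01 of a whole number). The authors' Peak Score, a deposited score from 540 to 1000, was used only as a filter. Single-end reads without molecular identifiers are not independent molecules, so the interval printed and the limit of 3 reads for a count of 0 cover counting error only. All per-sample columns matched a sample.

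Overlap of 1 bp or more was computed in Python 3.11.15 and checked with bedtools. Spreadsheet-altered gene symbols (169 peaks) were restored from Entrez numbers with the RefSeq gene table of GRCm38.p6, in which 99.96% of the numbers were found. Genes are the nearest TSS in the files. Log2(normalized tags + 1) of all 91770 peaks was compared between genotypes with limma 3.58.1 in R 4.3.3, using lmFit and then eBayes with an intensity trend. The tests were two-sided, without covariates, and Benjamini-Hochberg adjusted over all peaks, and a peak was called at an adjusted p under 0.05. The pseudocount understates changes of low peaks. Each ± after a log2 change is its moderated standard error from limma (n = 2 per genotype), which draws partly on the spread of all peaks. On simulated counts for the 91770 microglia peaks limma recovered 98% of 4-fold and 41% of 2-fold changes in peaks of at least median signal.

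The rule for named peaks took called members whose SgshKO libraries both lay on 1 side of WT and whose mean reached the median of all microglia peaks (30.3), and from these the 8 largest increases and 8 largest decreases (1 per nearest gene). It added the 5 members of highest signal, the highest member of each of 26 genes, the 10 genes with most members and the 5 longest runs. Some peaks that this rule takes are not reported here. Genes named by their number of calls, the printed sequences, the strongest called peak per gene and the places that need care were chosen after values were seen. The members and gene lists were chosen with earlier results of these data known. Other pseudocounts (0.5 and 5), the omission of the lowest 25% of peaks or of the sex chromosomes, 4 scalings, a replicate block, leaving out each library, stricter member rules and other thresholds were tried, as were edgeR 4.0.16 and DESeq2 1.42.0 with the recovered reads as input. Added after seeing the data were edgeR with deposited totals and the omission of members near Sgsh or split between replicates.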

Additional observations from a re-analysis of the deposited data

How the results depend on the processing

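With 2 libraries per genotype the counts of called distal microglia-only peaks depended on the processing, and the cause was not tested except where fewer peaks were tested or fewer libraries entered. From 2969 called (1778 higher, 1191 lower), the counts were 1747 and 502 lower with the lowest 25% of peaks left out, 6575 and 4600 lower with in-peak scaling, 5223 (3426 and 1797) with median-of-ratios scaling, 5156 (3234 and 1922) with quantile normalization, 4687 (3334 higher) with cyclic loess, 6354 (3930 and 2424) with edgeR and TMM on recovered reads, and 1549 with 234 lower in DESeq2. EdgeR with deposited totals, chosen after seeing the data, called 3855 (2292 higher, 1563 lower). Peaks of the highest Peak Score gave 1809 (1176 and 633), a threshold of 0.01 gave 1040 (774 and 266) and one of 0.1 gave 4828 with 2222 lower. Leaving out each library in turn gave 185 to 9001 called, 176 to 5997 higher and 9 to 7002 lower, the lowest without WT replicate 2 and the most lower calls without SgshKO replicate 1. The median change stayed between -0.32 and 0.20 in these. Without members split between replicates there were 1773 higher and 1189 lower. The share of peak tags in WT replicates 1 and 2 and SgshKO replicates 1 and 2 was 32.6%, 31.96%, 31.7% and 27.7% without members within 1000 bp of a nuclei peak, 34.1%, 33.5%, 33.0% and 28.8% over 5000 bp from a TSS, and 35.5%, 34.9%, 35.0% and 30.8% for the highest Peak Score, lowest in SgshKO replicate 2 each time.

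The replicate number used as a block gave 6423 called (3575 higher, 2848 lower). The labels do not say that equal numbers pair libraries. Deviations of same-numbered libraries had a correlation of 0.05 over these peaks, which cannot tell whether they were handled together. In both genotypes replicate 1 had more of its tags in peaks (55.8% against 48.7% in WT, 67.4% against 53.7% in SgshKO). Pairing was not tested further.

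Of the 17 called peaks reported from the naming rule, 6 kept the call in every other fit, and those that lost it are named above. Of another 17 called peaks named outside that rule, run after seeing the data, 4 kept it (4930405A10Rik, Hif1a, Myo5a and Timp2), and none changed sign. Among these 17, 12 lost it without WT replicate 1, 12 without WT replicate 2 and 1 without SgshKO replicate 1. DESeq2 did not call Cd180, C1qb or Ctsd, cyclic loess did not call Cd180, Abca1, Itgax or Cd74, quantile normalization did not call Abca1 or Cd74, and a pseudocount of 0.5 did not call Cd9, Abca1 or Cd74. Changes that reversed were, except at Cotl1, ones that were not called. Cyclic loess gave -0.14 at Chmp6, -0.32 at Fance, -0.34 at Mapk8, -0.34 at Spi1, -0.093 at Irf8, -0.19 at Mef2c, -0.35 at the strongest Runx1 peak and -0.14 at Tmem119. Quantile normalization gave -0.0088 at Cotl1, -0.12 at Chmp6, -0.36 at Fance, -0.33 at Mapk8, -0.38 at Spi1, -0.12 at Irf8, -0.23 at Mef2c, -0.39 at Runx1 and -0.14 at Tmem119. In-peak scaling gave -0.081 at Spi1, -0.17 at Runx1 and -0.069 at Cst7. Tgfbr1 turned to 0.035 with median-of-ratios scaling, 0.036 with edgeR and 0.042 with DESeq2. Over the fits that left out 1 library, changes ranged from -0.026 to 0.28 at Spi1, -0.40 to 0.066 at Sall1, -0.10 to 0.18 at Runx1, -0.27 to 0.073 at Csf1r, -0.17 to 0.13 at Tgfbr1, -0.32 to 0.049 at Tgfbr2, -0.42 to 0.26 at Trem2, -0.32 to 0.58 at Cst7, -0.0030 to 0.51 at Itgax, -0.63 to 0.24 at Axl, -0.15 to 0.70 at Fabp5 and -0.23 to 0.83 at Tfec. Distal microglia-only peaks had a median of 22 to 34 reads per library. With 2 libraries per genotype, 41% of simulated 2-fold changes were recovered in peaks of at least the median signal of all microglia peaks (30.3 normalized tags). Most distal microglia-only peaks were weaker than this (median 24.8). Apart from the set changes, the simulated libraries had the same expected share of tags in each peak, unlike the real ones. Neither depth nor the number of libraries was varied.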
